A study of Mus musculus with 10 samples.

Results

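The mRNAs of the cytosolic ribosome were read gene by gene in mouse embryonic stem cells that had lost Mof or had been treated with etomoxir. Rows of the deposited gene table were taken as members when their name held a symbol that begins with Rpl or Rps and a digit, or Rplp0, Rplp1, Rplp2 or Rpsa. Rps6k kinases, Rps19bp1 and symbols with the pseudogene suffix -ps were dropped. This gave 90 members of 49624 gene names, namely 45 core proteins of the large subunit, 31 of the small subunit and 14 paralogues or retrocopies. The gene annotation types 84 members as protein coding. It types Rps3a2, Rps3a3, Rpl6l, Rps12l1, Rps4l and Rpl37rt, all among the paralogues or retrocopies, as processed pseudogenes. Rpl13 was not analysed here. Of the members, 26 shared their row with other genes, 22 with a small nucleolar RNA and 4 with other coding genes. Rpl13a is in both counts, and Rpl19, whose row holds a microRNA and a processed transcript, is in neither.

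The study measured RNA from 10 libraries in 5 groups of 2, all from blastocyst-derived embryonic stem cells kept in 2i/LIF, the medium with MEK and GSK3 inhibitors and LIF that holds cells in the naive ground state. WT and KO cells both carried floxed alleles (Mof fl/fl) and the inducible recombinase Cre-ER TM on C57BL/6J, and their genotype is given as wild type or Mof-KO. The protocol gives ethanol or 100 nM 4-hydroxytamoxifen, the ligand of the inducible Cre, for 3 days without saying which group had which, and no group with active Cre and intact Mof was named. Control cells had water and ETO cells had etomoxir, an inhibitor of fatty acid oxidation at carnitine palmitoyltransferase, for 4 days, and Released cells had 4 more days without it, all in the line E14tg2a. The cell line changes with the experiment, so line and experiment cannot be told apart. The labels call the 2 libraries of a group biological duplicates but name no separate cultures, so the tests read only the spread between these libraries, which may be technical.

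Cytosolic ribosomes join a small subunit, which reads the mRNA, to a large subunit, which forms peptide bonds. Each core ribosomal protein is made from a single principal gene and enters the particle in a fixed ratio to the others, so cells keep the output of these genes in balance. Their mRNAs are among the most abundant of a dividing cell, and most begin with a cytosine followed by a run of pyrimidines, the terminal oligopyrimidine element that ties their translation to mTOR signalling through Larp1. Their abundance also made these mRNAs the commonest templates for retrocopies in mammalian genomes, which are intronless copies nearly the same in sequence as the parent mRNA. A few copies and relatives, such as Rpl3l, Rpl10l, Rpl22l1, Rpl39l and Rps27l, encode paralogous proteins.

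Reads of a core gene and of a recent retrocopy can differ at few or no bases, and how the authors placed reads that match several sites is not given in the sources used here. Coding sequences of 2 core genes are shown beside the copy that carried signal, because the values of these genes turn on it. Sequences were read from GRCm38, the build that mm10 names. For Rps3a1 (chr3:86137940-86142702, minus strand), a protein of the small subunit, and Rps3a3 (chr13:108670603-108671397, plus strand), 9 of 792 aligned coding bases differ, and coding bases 141 to 260 hold 2 of them. For Rpl15 (chr14:18267823-18271391, minus strand), a protein of the large subunit, and Gm8420 on chromosome 1, 22 of 598 aligned bases differ, with 7 in bases 479 to 598. Capitals mark the bases at which the members of a pair differ.
Rps3a1: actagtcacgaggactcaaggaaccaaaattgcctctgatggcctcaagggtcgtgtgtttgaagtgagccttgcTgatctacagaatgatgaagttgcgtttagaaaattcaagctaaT
Rps3a3: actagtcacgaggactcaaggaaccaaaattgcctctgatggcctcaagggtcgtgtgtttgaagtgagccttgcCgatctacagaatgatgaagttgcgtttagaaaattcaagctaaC
Rpl15: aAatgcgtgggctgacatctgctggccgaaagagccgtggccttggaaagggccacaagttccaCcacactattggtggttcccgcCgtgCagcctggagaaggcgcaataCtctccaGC
Gm8420: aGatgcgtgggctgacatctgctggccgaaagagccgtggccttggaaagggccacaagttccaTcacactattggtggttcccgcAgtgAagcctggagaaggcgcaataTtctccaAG

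Annotated copies held a large part of the ribosomal protein signal. A copy was a gene model of the table that aligned to a core mRNA at 80% identity or more over at least 50% of its own length. There were 1287 such copies, and each of the 76 core genes had at least 1. Members took 1.67% to 1.91% of the signal of a library. The core genes took 1.51% to 1.81% in their own rows and 2.17% to 2.50% with their copies. Some copies are members themselves, such as Rps3a3. The median core gene had 68.3% of the summed signal of itself and its copies in its own row. In 24 core genes the own row held over 90% of that sum, in 29 less than 50% and in 7 less than 10%.

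Among the 7 core genes with the smallest share in their own row were Rps29, Rps16, Rpl36, Rpl38, Rpl36a and Rpl19. Rps29, a small zinc-binding protein of the 40S head, had 4.63 to 24.6 normalised counts over the 10 libraries, against 802 to 1208 for Gm14303, and held 1.35% of the sum. Rps16, a 40S protein whose tail contacts the P-site tRNA, had 10.8 to 28.2, against 541 to 744 for Rps16-ps2. Rpl38, known for patterning defects in mutant mice, had 1.98 to 19.8, against 155 to 343 for Rpl38-ps2. In none of these pairs did the highest library of the core row reach the lowest library of the copy. Rps6, the substrate of S6 kinases, had 4.63 to 39.9, against 66.4 to 161 for Rps6-ps4. Rpl5, which binds 5S RNA, had 131 to 489, against 499.8 to 1056 for Gm15500. Fau, which the rule does not match and which encodes the 40S protein eS30, had 21.6 to 45.8, against 1737 to 2154 for Gm9843. A low value of such a row is therefore a value of the row, and whether the gene itself was transcribed at that level was not tested.

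**Figure D1:**
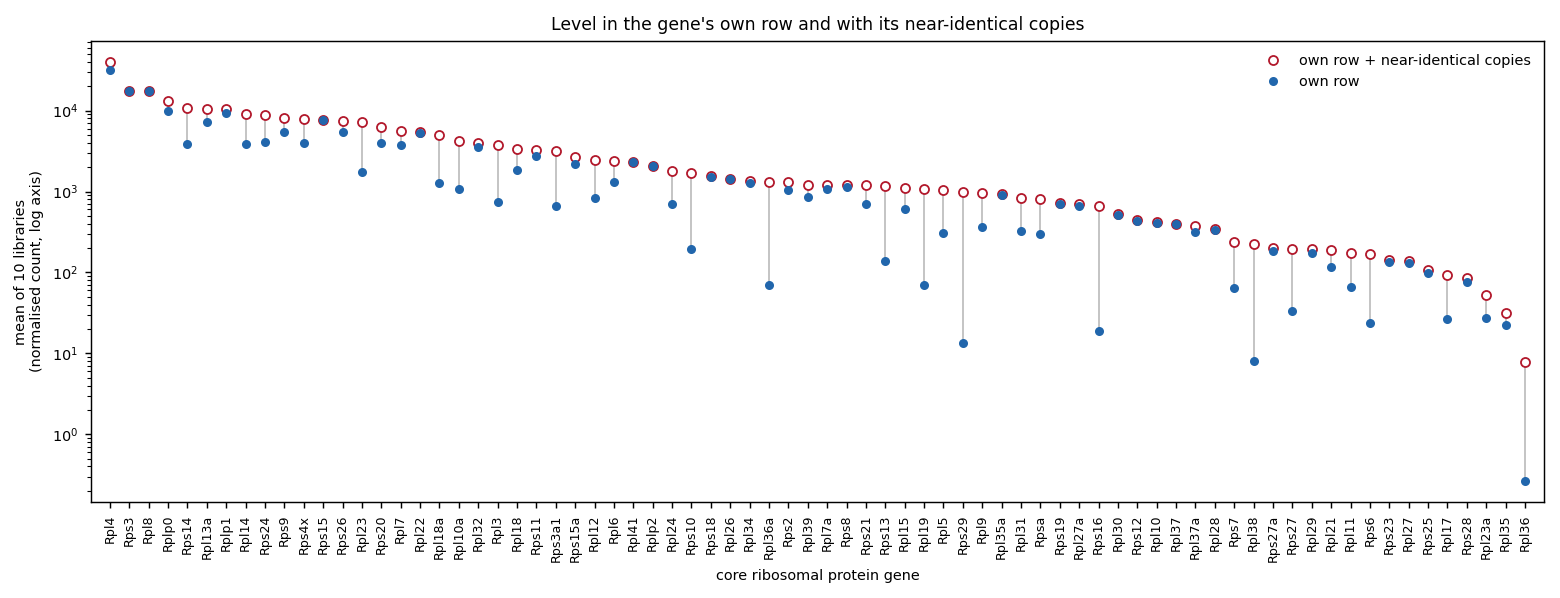
Mean normalised count over the 10 libraries (log axis) of core ribosomal protein genes, ordered along the x axis by its sum with copies. Filled points are the gene's own row and open points the row plus its annotated copies, and a long line between them marks genes read mostly in copies, such as Rps29 with 13.4 in its own row against 977 in its copies.

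Levels per length were highest in the core genes with few copies as a class. Mean FPKM, the deposited value per transcript length, had a median of 982 in the 16 core genes with up to 5 copies, 51.2 in the 31 with 6 to 14 and 50.9 in the 29 with 15 or more. Spearman's rho of FPKM and copy number across these 76 genes was -0.37, and the genes share libraries and are not independent. In the 52 core genes alone in their row, where FPKM are per length of the gene, the medians were 799, 39.6 and 29.2 in classes of 12, 23 and 17 genes, and rho was -0.36. Single genes departed from this order. Among members alone in their row, Rplp1, a stalk protein with 17 copies, had the highest mean, with 2151 to 3076 FPKM. Further abundant members were Rpl8 with 1496 to 2500.4 and Rps15 with 1601 to 1932, and the range of Rpl8 overlaps those of Rplp1 and Rps15. Rpl8 has 1 annotated copy. At the other end stood Rps6 (0.335 to 3.75), Rps16 (1.26 to 3.37) and the muscle paralogue Rpl3l (0.14 to 1.27).

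Members counted for testing had a normalised count of at least 10 in at least 2 libraries, and 86 passed. The other 4 were Rpl36, Rpl6l, Rps12l1 and Rps3a2. Rpl36, a core 60S protein, was at 0 in 9 libraries and at 2.62 in Released replicate 2, below the 3.52 that 3 reads are worth there. Its 17 copies summed to a mean of 7.55. Rpl6l had 0 to 4.15, Rps3a2 had at most 1.04, and Rps12l1 was at 0 in every library.

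Several members stood apart between the WT and KO libraries of the Mof line and the E14tg2a libraries, where line and experiment cannot be told apart and no test was made. Rps3a1 had 1344 to 1895 normalised counts in the Mof line and 5.81 to 11.7 in E14tg2a. Rps3a3, the copy printed above, had 2.95 to 19.6 and 3412 to 5050.3, so the 2 rows swapped places. Rps3a1 with all its copies summed to 1365 to 1956 and 3432 to 5077. Further genes of both subunits were read mostly in the Mof line. Rpl34, a 60S protein, had 2721 to 3209.7 in the Mof line and 92.2 to 161 in E14tg2a. Rpl29, a heparin-binding 60S protein with 82 annotated copies, had 342 to 461 and 5.50 to 15.8. Rps2, a 40S protein at the mRNA entry channel, had 1939 to 2104 and 318 to 484. In all 4 core genes the lowest library of the Mof line lay above the highest E14tg2a library. With their copies the sums were 2796 to 3289.5 and 137 to 217 for Rpl34, 374 to 483 and 19.8 to 39.3 for Rpl29 and 2213 to 2358 and 483 to 709 for Rps2.

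In the other direction, Rpl15 had 219 to 344 in the Mof line and 489.9 to 1063 in E14tg2a, and its copy Gm8420 had 0 to 3.70 and 572 to 818. Rps13-ps2, a copy of the 40S gene Rps13, had 224 to 319 in the Mof line and 0 to 0.83 in E14tg2a, while Rps13 itself overlapped between the lines. The paralogues Rpl39l (129.6 to 229 against 260.0 to 603) and Rpl10l (343 to 445 against 657 to 1034) and the retrocopy Rps4l (2254 to 3276 against 3320.2 to 5333) were higher in E14tg2a without overlap. In all, 14 tested members were higher in every library of the Mof line and 7 in every library of E14tg2a, together 21 of 86, while 35.4% of the 16056 tested genes were so separated. A mean difference of at least 4-fold was seen in 5.81% of the members and 8.02% of the genes.

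**Figure D2:**
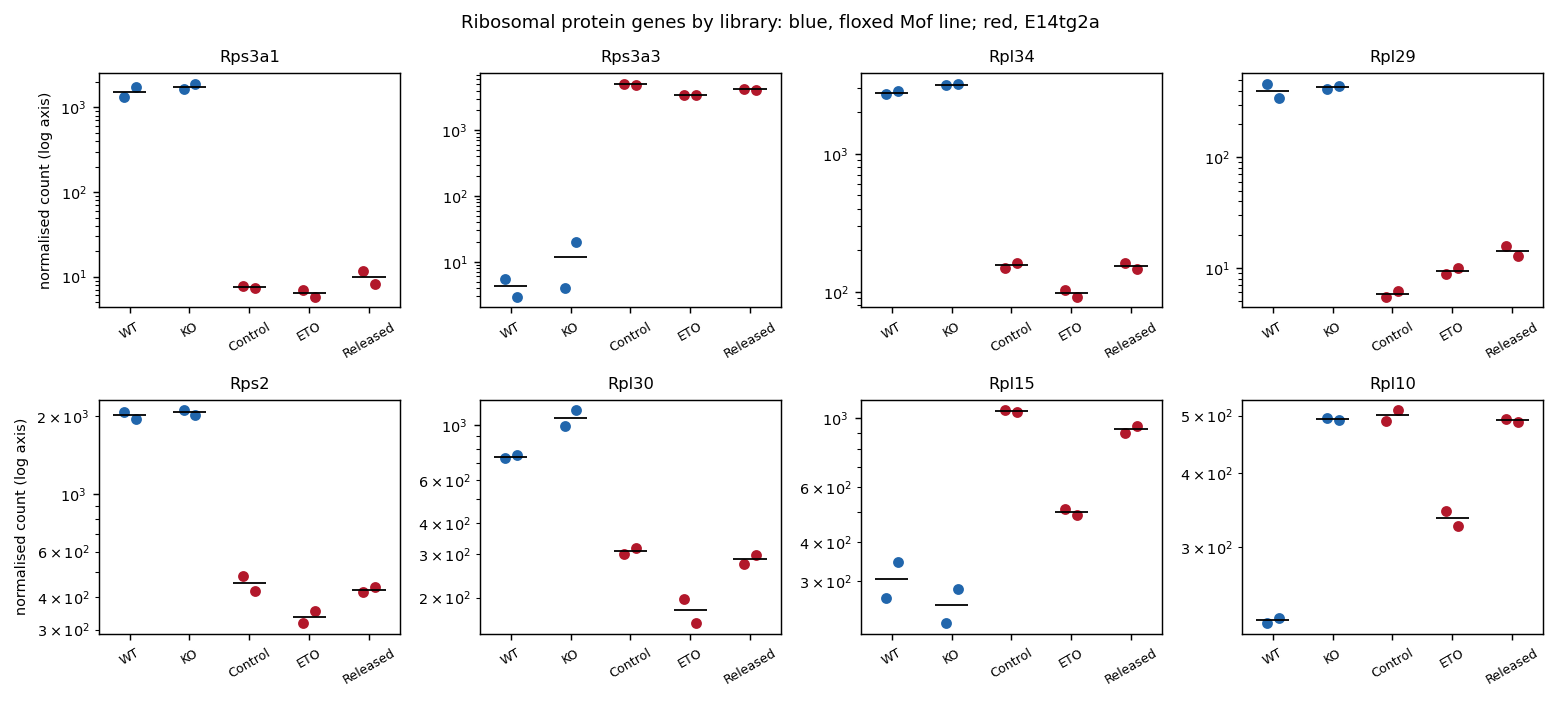
Normalised counts of each library for 8 members in the Mof line (blue, WT and KO) and E14tg2a (red, Control, ETO and Released), on log axes, 1 point per library with a bar at the group mean. Rps3a1 lies between 1344 and 1895 in the Mof line and between 5.81 and 11.7 in E14tg2a, and Rps3a3 does the opposite.

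A few rows also differed between the libraries of a group. Among pairs of libraries with a mean of at least 100 normalised counts, 13 of 339 member pairs (3.83%) differed by more than 1.5-fold, against 268 of 50811 pairs over all genes (0.527%). The 40S gene Rps24 had 4007 and 1623 in the WT libraries, while its copy Rps24-ps3 on the X chromosome had 1959 and 3959. Their family summed to 7752 and 7900.2, so the gap was within the family and not in its total. Rpl37, a zinc-binding 60S protein, had 955 and 298 in WT, and Rps21, a small 40S protein with 2 copies, had 495 and 1138 in WT and 1406 and 532 in ETO. Rps27rt, a retrocopy of Rps27, had 211 and 86.4 in WT. Changes of these rows rest on which library is read.

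Library totals were 10562100 to 13326200 normalised counts, from an estimated 9783470 to 16778500 reads. Kat8, which encodes Mof, had 433 and 357 in WT and 222 and 205 in KO, and 339 to 566 in the other groups. A whole-gene value mixes deleted and kept exons. All 8 naive pluripotency markers were present in every library. The ETO libraries differed in markers of cell state. The summed level of 8 naive pluripotency markers was 38159 to 40208 in ETO and 55023 to 63616 in the others, and 8 of 8 fell against Control. The sum of 5 trophectoderm markers was 3489 to 3659.9 in ETO and 754 to 1530.2 elsewhere, of 6 primitive endoderm markers 334 to 349.9 and 75.9 to 117, and of 6 fibroblast markers 181 to 186 and 35.3 to 96.4. The trophectoderm sum was mostly Krt18, a keratin, with 2501 and 2618 in ETO and 29.7 and 44.6 in Control, while Cdx2, a defining factor of that lineage, fell to 5.93 and 7.47 from 61.6 and 35.3 (-2.64, adjusted p = 0.00026). The fibroblast sum was mostly Col1a1, with 152 and 154 in ETO, the 1 of 3 tested fibroblast markers that rose. Below 10 in every library were Elf5 among the trophectoderm markers, Sox17 among those of primitive endoderm, and Col1a2, Col3a1 and Dcn among those of fibroblasts. The sum of 5 epiblast markers was 1317 to 1472 in ETO and 1374 to 2373 elsewhere. That sum holds opposite changes against Control, with 1 rising and 2 falling of 4 tested. Dnmt3a rose to 732 and 805 in ETO from 165 and 189 in Control (2.11), while Dnmt3b (-1.60) and Otx2 (-1.29) fell. Fgf5 was below 10 in every library. The part of all these markers in the fall of the ribosomal protein rows was not tested. In bulk RNA fewer cells of a type and less RNA per cell cannot be told apart.

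Loss of Mof, the acetyltransferase of histone H4 lysine 16, was compared first. Of 86 tested members, 28 were higher in KO than in WT and 0 lower (limma, adjusted p under 0.05), or 32.6% of the members, where 24.6% of all tested genes rose and 13.3% fell. At an unadjusted p under 0.05, limma gave 35 rising and 4 falling members. The median log2 change was 0.21 in the members and 0.08 over all genes. Rising members were 13 of 44 large subunit genes, 9 of 31 small subunit genes and 6 of 11 paralogues or retrocopies. Of core genes that share a row with a small nucleolar RNA, 10 of 22 rose (45.5%). Of those alone in their row 11 of 51 rose (21.6%), a smaller share than over all tested genes. Among core genes with a mean of at least 1000 normalised counts 8 of 33 rose, against 1642 of 3312 genes of that level, a smaller share than in that level class. With total signal as the factor, the split was 15 rising to 4 falling, and with median-of-ratios factors 23 to 4. That scaling by total signal moved the median of all genes from 0.08 to -0.08. Without KO replicate 2, 20 members rose and 2 fell, and without WT replicate 1 or 2 there were 1 and 2 falling.

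The largest rises among members that passed were in the 6 that follow. Rpl10, which completes the peptidyl transferase region late in 60S assembly and lies on the X chromosome, had 223 and 228 in WT and 495 and 492 in KO, a 2.18-fold rise (log2 change 1.13, SE 0.09, adjusted p = 5.94e-07). The groups did not overlap, and the call was kept in all 21 alternatives run. Rps13 had 83.3 and 84.4 in WT and 160.1 and 165 in KO (log2 change 0.95, SE 0.14, adjusted p = 0.000127), a row with 11.6% of the sum with its copies, which had 956 and 779 in WT and 1161 and 1128 in KO (0.41, adjusted p = 0.00166). Rps27a, which is made as a fusion with ubiquitin, had 101 and 123 in WT and 206 and 219 in KO (log2 change 0.92, SE 0.15, adjusted p = 0.000206). Rps25, known for its role in initiation at viral internal entry sites, had 61.2 and 68.3 in WT and 113 and 125 in KO (log2 change 0.87, SE 0.17, adjusted p = 0.0011). In these 3 genes too every KO library was above every WT library. Rpl10 shares its row with Snora70 and Rps13 with Snord14a. Rps6, the S6 kinase substrate, had 4.63 and 10.8 in WT and 17.5 and 26.2 in KO (log2 change 1.46, SE 0.38, adjusted p = 0.0066), a row of under 30 normalised counts whose call was lost when WT replicate 1 or KO replicate 2 was left out (0.93 to 1.18, adjusted p from 0.0631 to 0.0825). Rpl23a, a docking protein at the polypeptide exit, had 18.9 and 20.1 in WT and 54.2 and 36.0 in KO (log2 change 1.14, SE 0.32, adjusted p = 0.0103), and its call was lost when KO replicate 1 was left out (0.85, adjusted p = 0.0976). It shares its row with Snord42b, and the deposited FPKM turned its direction (-3.32, adjusted p = 0.0952).

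The other 22 rising members had log2 changes of 0.16 (Rps3) to 0.79 (Rpl28), with a median of 0.38. Rps3, the smallest of them, came to a value near 0 under either scaling by total signal. Among them were the 6 paralogues or retrocopies Rpl39l, Rpl10l, Rpl22l1, Rpl7l1, Rps27l and Rps4l. No paralogue or retrocopy fell. With total signal as the factor Rpl10l, Rpl22l1, Rpl7l1 and Rps4l did not pass. Rpl30, a 60S protein known to regulate its own splicing in yeast, and Rpl35a, a 60S protein mutated in Diamond-Blackfan anaemia, were among the core genes that rose.

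Summing each core gene with its copies left 24 of 76 core genes rising and 1 falling, with 21 rising in both readings. Rps6 summed to 107 and 156 in WT and 188 and 239.5 in KO (0.71, adjusted p = 0.015) and Rpl23a to 44.8 and 37.8 in WT and 89.2 and 66.1 in KO (0.88, adjusted p = 0.00643). Rpl3, a core 60S protein, rose in its own row (0.63, adjusted p = 4.99e-05) but did not pass with its copies (0.07, adjusted p = 0.402). Rps24 was the reverse. Its own row gave 1.04, adjusted p = 0.105, and the sum rose from 7752 and 7900.2 in WT to 10424 and 10792 in KO (0.44, adjusted p = 8.72e-06).

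Further members lay more than 3 scaled median absolute deviations from the members' median without passing the test. Rpl37 had 955 and 298 in WT and 295 and 298 in KO (-0.85, adjusted p = 0.272), and passed only when WT replicate 2 was left out (-1.68, adjusted p = 1.1e-07). Rpl3l had 13.9 and 19.6 in WT and 4.04 and 9.16 in KO (-1.29, adjusted p = 0.0772), and passed when KO replicate 2 was left out (-1.80, adjusted p = 0.0494). Rps3a3 had 5.55 and 2.95 in WT and 4.04 and 19.6 in KO (1.00, adjusted p = 0.305), a row near the floor of the Mof line that passed only when KO replicate 1 was left out (2.02, adjusted p = 0.000164). In Rpl37 and Rps3a3 the size of the change rests on 1 library. Rps24 passed when either WT library was left out (0.39 to 1.69, adjusted p from 5.35e-11 to 0.000108).

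Most ribosomal protein rows were lower in ETO than in Control. Against Control, 55 of 86 members fell in ETO and 4 rose, against 34.0% of all genes falling and 26.8% rising. Among the members 64.0% fell. The median log2 change was -0.44 in the members and -0.09 over all genes. Falling members were 31 of 44 large subunit genes (median -0.55), 16 of 31 small subunit genes (median -0.38) and 8 of 11 paralogues or retrocopies. Of core genes that share a row with a small nucleolar RNA 17 of 22 fell, and of those alone in their row 30 of 51. At a mean of at least 1000 normalised counts, 23 of 33 core genes fell, against 1854 of 3312 genes of that level. With total signal as the factor the split was 36 falling to 8 rising, and the median of all genes moved from -0.09 to 0.07. The marker sums given above move with this group, and their part was not tested. Without Control replicate 2 or without ETO replicate 2, 2 members rose. With copies summed, 49 of 76 core genes fell and 3 rose, and 44 fell in both readings.

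The genes of the 2 proteins that form the 5S RNA particle of the large subunit, known to hold Mdm2 when assembly stalls, fell in ETO. Rpl5 had 464 and 489 in Control and 174 and 131 in ETO (log2 change -1.65, SE 0.14, adjusted p = 6.45e-08). Rpl11 had 88.1 and 86.1 in Control and 39.5 and 34.9 in ETO (log2 change -1.21, SE 0.25, adjusted p = 0.000711). Neither gene's groups overlapped, and both calls were kept in every alternative run (21 for Rpl5 and 22 for Rpl11). With their copies summed, Rpl5 gave 1150.0 and 1292 in Control and 707 and 648 in ETO (-0.85, adjusted p = 0.000122) and Rpl11 228 and 200.3 in Control and 126 and 121 in ETO (-0.79, adjusted p = 8.26e-05). Rpl5 is an outlier of the members, at the lower end of their changes, and shares its row with Snord21.

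The other members with the largest falls were rows of low level. Rpl3l, the muscle paralogue of Rpl3, had 9.91 and 6.23 in Control and 1.98 and 0.83 in ETO (log2 change -1.93, SE 0.55, adjusted p = 0.00668), and its call was lost when Control replicate 1 or ETO replicate 2 was left out (-1.63 to -1.58, adjusted p from 0.0568 to 0.0597). Rpl38 had 19.8 and 11.4 in Control and 1.98 and 7.47 in ETO (log2 change -1.68, SE 0.65, adjusted p = 0.0358), and its call was lost when either Control library or ETO replicate 1 was left out (-2.05 to -0.92, adjusted p from 0.0521 to 0.318). Both lie partly under the value of 3 reads, 2.07 to 4.04 normalised counts by library. Rps29 had 17.6 and 23.9 in Control and 11.9 and 6.64 in ETO (log2 change -1.12, SE 0.43, adjusted p = 0.0332), and its call was lost when either Control library or ETO replicate 2 was left out (-1.33 to -0.74, adjusted p from 0.0502 to 0.236). Rps6 had 31.9 and 38.4 in Control and 15.8 and 15.8 in ETO (log2 change -1.10, SE 0.38, adjusted p = 0.0193), with a call lost when Control replicate 2 or either ETO library was left out (-1.10 to -0.97, adjusted p from 0.069 to 0.108). Summed with copies the falls were smaller where the copies hold the signal. Rps29 then gave -0.31, adjusted p = 0.00497, Rps6 -0.91, adjusted p = 0.00151 and Rpl38 -0.59, adjusted p = 0.0446.

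**Figure D3:**
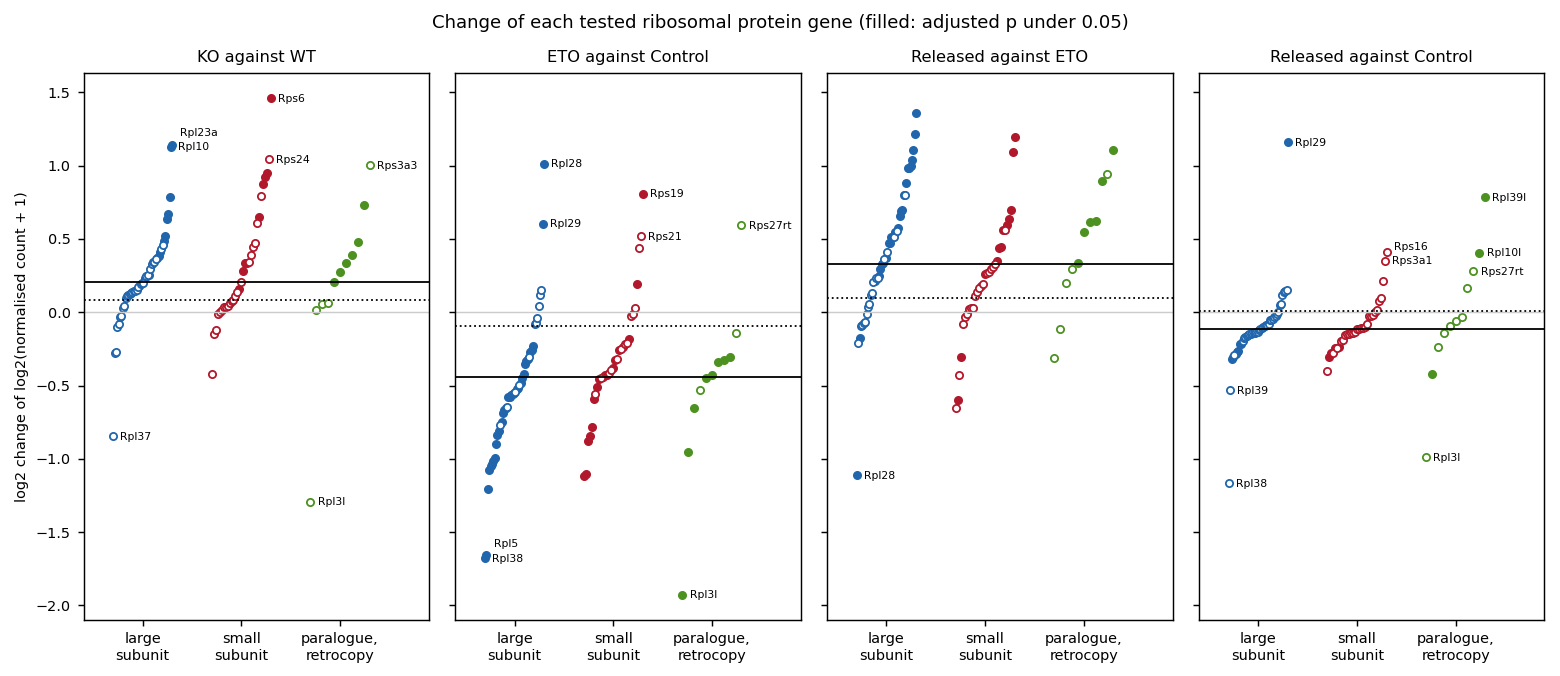
Log2 change of each tested member in the 4 comparisons, 1 point per member by class, filled where the adjusted p is under 0.05 and named where it is an outlier. The solid line is the median of the members and the dotted line that of all tested genes. In ETO against Control the median of the members lies at -0.44 and Rpl28 stands at 1.01.

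Rising members were few. Rpl28, a 60S protein with 6 annotated copies, had 223 and 274 in Control and 510.0 and 490.2 in ETO, a 2.02-fold rise (log2 change 1.01, SE 0.14, adjusted p = 1.32e-05), and every ETO library was above every Control library. Rpl28 also rose in KO, from 291 and 224 to 446 and 436 (0.79, adjusted p = 0.000461). Both calls were kept in all 22 alternatives run for each. Rps19, the gene most often mutated in Diamond-Blackfan anaemia, had 555 and 561 in Control and 763 and 1253 in ETO (log2 change 0.81, SE 0.20, adjusted p = 0.00587), with ETO libraries that differ from each other. Rpl29 had 5.50 and 6.23 in Control and 8.90 and 9.96 in ETO (log2 change 0.60, SE 0.24, adjusted p = 0.0386), close to the floor, and its call was lost when either WT library, either KO library, either Control library or either ETO library was left out (0.53 to 0.68, adjusted p from 0.0524 to 0.135). With copies summed Rpl29 gave 0.33, adjusted p = 0.199.

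The other 49 falling members had log2 changes of -1.08 (Rpl15) to -0.18 (Rps3), with a median of -0.52. Among the 24 core genes whose own row holds over 90% of the sum with copies, 17 fell in ETO and 3 rose, with a median of -0.52, and in KO 9 rose, with a median of 0.18. In the 16 core genes with up to 5 copies, 10 fell in ETO. In these genes little of the family's signal lies outside the row that was tested. Rpl8, a protein near the peptidyl transferase centre with 1 copy, had 18586 and 18672 in Control and 12209 and 12706 in ETO (-0.58, adjusted p = 7.25e-08). Rps15, a 40S head protein at the tRNA sites, had 8288 and 7969 in Control and 6887 and 6896 in ETO (-0.24, adjusted p = 0.00783, lost when Control replicate 1 was left out with adjusted p of 0.0766). Rps26, at the mRNA exit channel, had 6262 and 5278 in Control and 4345 and 4195 in ETO (-0.43, adjusted p = 0.0138, lost when Control replicate 1 or ETO replicate 2 was left out with adjusted p from 0.0698 to 0.0707). With total signal as the factor Rps15 (-0.07, adjusted p = 0.431) and Rps26 (-0.26, adjusted p = 0.137) did not pass.

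Rps21 and Rps27rt were also outliers of the ETO comparison and did not pass. Rps21 had 529 and 690.2 in Control and 1406 and 532 in ETO (0.52, adjusted p = 0.496), the spread named above. Rps27rt had 163 and 102 in Control and 191 and 198 in ETO (0.59, adjusted p = 0.324). Rpl4, the most abundant member by count, had 30636 and 29849.8 in Control and 29652 and 29246 in ETO (-0.04, adjusted p = 0.436), and its sign turned with total signal as the factor. Rps14, a 40S platform protein, had 3952 and 3827 in Control and 3553 and 4184 in ETO (-0.01, adjusted p = 0.924).

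Many of these rows were higher in Released than in ETO. Of 86 members, 41 rose in Released and 4 fell, against 33.1% of all genes rising and 24.6% falling. At a mean of at least 1000 normalised counts, 13 of 33 core genes rose (39.4%) and 2 fell. Of the 3312 genes of that level 1738 rose (52.5%), a larger share than in these core genes, and 745 fell. The comparison shares the ETO libraries with ETO against Control, so opposite signs are in part the same measurement. The median log2 change was 0.33 in the members and 0.10 over all genes, with 24 of 44 large subunit genes and 11 of 31 small subunit genes rising. With total signal as the factor 28 rose and 9 fell, and the median of all genes moved from 0.10 to -0.03. With copies summed, 33 core genes rose and 5 fell, and Rpl14, Rpl17, Rpl23a, Rpl36a and Rps29 lost their rise.

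The largest rises after withdrawal were in the 5S particle genes, in a 60S gene with many copies and in a paralogue. Rpl5 had 174 and 131 in ETO and 373 and 406 in Released (log2 change 1.36, SE 0.14, adjusted p = 6.79e-07). Rpl11 had 39.5 and 34.9 in ETO and 94.3 and 80.9 in Released (log2 change 1.21, SE 0.25, adjusted p = 0.000776). Rpl21, a 60S protein with 89 annotated copies, had 78.1 and 83.0 in ETO and 181 and 169 in Released (log2 change 1.11, SE 0.16, adjusted p = 2.05e-05). In each the Released libraries were above both ETO libraries. With copies summed the rises were smaller in Rpl5 (0.51, adjusted p = 0.00599) and Rpl11 (0.53, adjusted p = 0.00254), and the deposited FPKM gave 0.31, adjusted p = 0.785 for Rpl21, which shares its row with small nucleolar RNAs. Rpl39l, a paralogue of the exit tunnel protein Rpl39 that is known from testis, had 260.0 and 281 in ETO and 603 and 565 in Released (log2 change 1.11, SE 0.11, adjusted p = 3.76e-07). The other named genes were rows of low level. Rps6 had 15.8 and 15.8 in ETO and 39.9 and 35.2 in Released (log2 change 1.20, SE 0.38, adjusted p = 0.0131), with a call lost when either ETO library or Released replicate 1 was left out (1.11 to 1.20, adjusted p from 0.0539 to 0.0785). Rps29 had 11.9 and 6.64 in ETO and 16.5 and 24.6 in Released (log2 change 1.10, SE 0.43, adjusted p = 0.0383), lost when ETO replicate 2 or Released replicate 2 was left out (0.72 to 0.82, adjusted p from 0.235 to 0.258). The other 35 rising members had log2 changes of 0.18 (Rps9) to 1.04 (Rpl27), with a median of 0.55.

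Of the 4 falling members, Rpl28, Rps19 and Rpl4 are described here. Rpl28 had 510.0 and 490.2 in ETO and 255 and 209 in Released (log2 change -1.11, SE 0.14, adjusted p = 5.74e-06), beside 223 and 274 in Control. Rpl4, a protein of the exit tunnel, had 29652 and 29246 in ETO and 25636 and 26388 in Released (log2 change -0.18, SE 0.04, adjusted p = 0.00148). The calls of Rpl28 and Rpl4 were kept in every alternative run (22 and 21). Rps19 had 763 and 1253 in ETO and 607 and 687 in Released (log2 change -0.60, SE 0.20, adjusted p = 0.0272), and its call was lost when either WT library, ETO replicate 2 or Released replicate 1 was left out (-0.60 to -0.24, adjusted p from 0.0954 to 0.133).

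**Figure D4:**
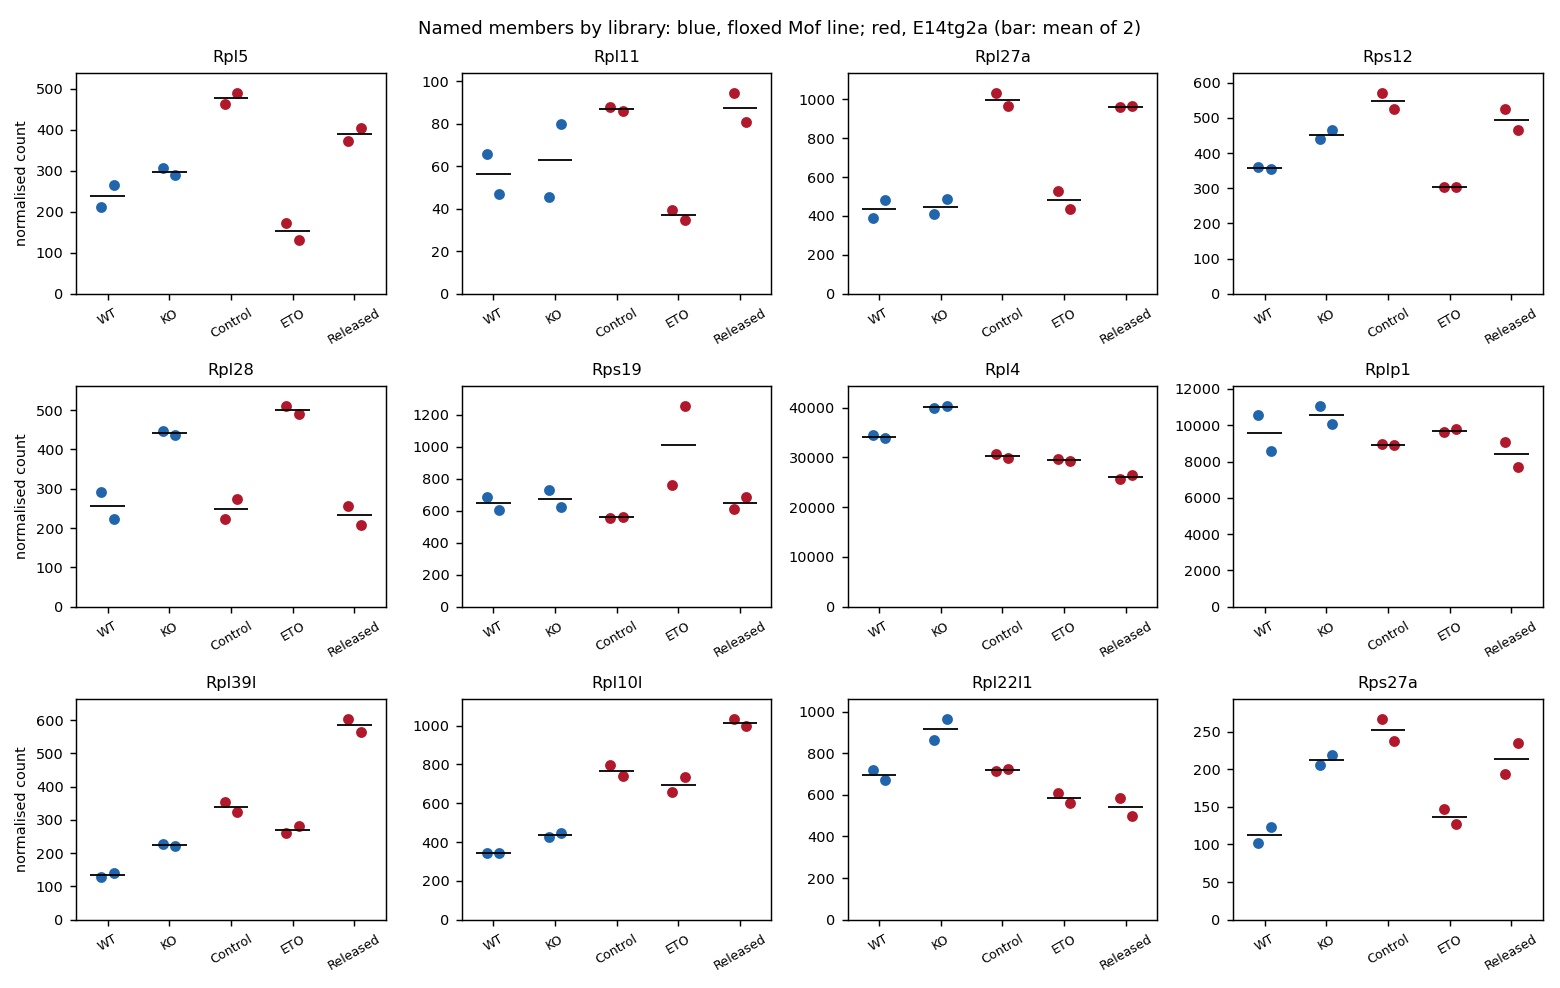
Normalised counts of 12 named members, 1 point per library (blue, Mof line; red, E14tg2a), with a bar at the mean of the 2 libraries of a group. The Rpl5 points of ETO are 174 and 131, under all Control (464 and 489) and Released (373 and 406) points, while the Rpl28 points of ETO lie above both.

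Against Control, few members differed in Released cells. Of 86 members, 12 were lower and 3 higher, against 5.51% and 7.03% of all genes. The median log2 difference was -0.11 in the members and 0.01 over all genes. The comparison shares its Control libraries with ETO against Control and its Released libraries with Released against ETO, so its values stand beside those and are not independent of them. The lower members include 11 of 33 core genes with a mean of at least 1000 normalised counts (33.3%), against 368 of 3312 genes of that level (11.1%). The count of lower members was 1 without Control replicate 1, 1 without Control replicate 2, 1 without Released replicate 2 and 3 without Released replicate 1, and of higher members 1 without Released replicate 1. No lower member passed with the deposited FPKM or in limma without trend or robust fitting (0 in each, with 20 and 12 at an unadjusted p under 0.05). With copies summed 13 core genes were lower, and Rpl29 no longer passed as higher (0.53, adjusted p = 0.123).

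Rpl39l was the higher member with the smallest p, with 353 and 324 in Control and 603 and 565 in Released (log2 change 0.79, SE 0.11, adjusted p = 0.000269), kept in all 22 alternatives run. Rpl10l, an autosomal paralogue of the X-linked Rpl10 that is known from meiosis, had 797 and 739 in Control and 1034 and 998 in Released (log2 change 0.40, SE 0.08, adjusted p = 0.00551), lost when Control replicate 2 or Released replicate 1 was left out (0.35 to 0.38, adjusted p from 0.0726 to 0.0811). Rpl29 had 5.50 and 6.23 in Control and 15.8 and 12.9 in Released (log2 change 1.16, SE 0.24, adjusted p = 0.00489), lost when Released replicate 1 was left out (1.02, adjusted p = 0.057). In all 3 the Released libraries were above both Control libraries.

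The lower members with the largest differences were smaller in size. Rpl22l1, a paralogue of Rpl22, had 715 and 725 in Control and 583 and 498 in Released (log2 change -0.42, SE 0.09, adjusted p = 0.0083), lost when either Control library or Released replicate 2 was left out (-0.43 to -0.31, adjusted p from 0.063 to 0.14). Rpl7, a 60S protein, had 3963 and 4391 in Control and 3389 and 3306 in Released (log2 change -0.32, SE 0.10, adjusted p = 0.0496), lost when either Control library, either ETO library or either Released library was left out (-0.39 to -0.24, adjusted p from 0.0699 to 0.3). Rps20, a 40S head protein, had 4587 and 4553 in Control and 3647 and 3747 in Released (log2 change -0.31, SE 0.07, adjusted p = 0.0115), lost when either Control library or either Released library was left out (-0.33 to -0.29, adjusted p from 0.0711 to 0.109). In these 3 every Released library was below both Control libraries. Rplp2, a stalk protein, had 2171 and 2256 in Control and 1967 and 1637 in Released (log2 change -0.30, SE 0.09, adjusted p = 0.038), lost when either Control library, either ETO library or Released replicate 2 was left out (-0.33 to -0.17, adjusted p from 0.0582 to 0.391). Rpl18, a 60S protein, had 1752 and 1972 in Control and 1594 and 1457 in Released (log2 change -0.29, SE 0.08, adjusted p = 0.0215), lost when Control replicate 2 or Released replicate 2 was left out (-0.22 to -0.20, adjusted p from 0.222 to 0.238). Rps9, a 40S body protein, had 6114 and 6336 in Control and 5258 and 5001 in Released (log2 change -0.28, SE 0.07, adjusted p = 0.0115), lost when either Control library or either Released library was left out (-0.32 to -0.24, adjusted p from 0.0522 to 0.136). Each of these 6 calls was lost when some single library was left out. The other 6 lower members had differences of -0.27 (Rpl22) to -0.22 (Rpl32) on the log2 scale.

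Outliers of this comparison that did not pass were Rpl38, Rpl3l, Rpl39, Rps16, Rps27rt and Rps3a1. Rpl38 had 3.44 and 10.5 in Released (-1.17, adjusted p = 0.268) and Rpl3l 3.44 and 3.52 (-0.99, adjusted p = 0.267). Rpl39, a small basic protein of the exit tunnel, had 918 and 1087 in Control and 618 and 771 in Released (-0.53, adjusted p = 0.427). Its Released libraries lay below both Control libraries, and the shared spread of the test includes the WT libraries, which had 586 and 1165. Rps16 had 17.6 and 14.5 in Control and 28.2 and 16.4 in Released (0.41, adjusted p = 0.504), Rps27rt had 163 and 102 in Control and 201 and 122 in Released (0.28, adjusted p = 0.765) and Rps3a1 had 7.71 and 7.26 in Control and 11.7 and 8.20 in Released (0.35, adjusted p = 0.315).

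The difference between the KO change and the ETO change was tested directly. It passed as positive in 56 of 86 members and as negative in 1 (adjusted p under 0.05), against 32.3% and 22.2% of all genes. Its value was above 0 in 79 members, whether or not it passed. It passed as positive in 20 of 22 core genes that share a row with a small nucleolar RNA. Of core genes alone in their row it passed as positive in 28 of 51. At a mean of at least 1000 normalised counts, it passed as positive in 23 of 33 core genes (69.7%) and as negative in 0. Of the 3312 genes of that level, 2053 (62.0%) passed as positive and 421 (12.7%) as negative. At that level the median was 0.47 in the core genes and 0.43 in all genes. The median difference was 0.66 in the members and 0.13 over all genes, and total signal as the factor moved the latter to -0.19. The effects come from different lines and experiments, whose part cannot be told apart from that of the treatments. Among members that passed, positive differences were largest in Rps6 (2.56, adjusted p = 0.00081), Rpl23a (2.16, adjusted p = 0.000803) and Rpl5 (1.98, adjusted p = 7.44e-07). Rps29 (1.91, adjusted p = 0.0143, lost when Control replicate 2 or ETO replicate 2 was left out with adjusted p from 0.0564 to 0.0665) followed. The deposited FPKM turned the Rpl23a difference to -4.76, adjusted p = 0.0598. With copies summed the differences were 1.62, adjusted p = 0.000296 for Rps6, 1.13, adjusted p = 0.000266 for Rpl5 and 0.34, adjusted p = 0.0241 for Rps29. Rps27a (1.80, adjusted p = 3.51e-06) and Rpl10 (1.70, adjusted p = 4.12e-08) moved in opposite directions, up in KO and down in ETO, and each change passed on its own. The member that passed as negative was Rps19 (-0.75, adjusted p = 0.0474, lost when either WT library, either KO library, either Control library or ETO replicate 2 was left out with adjusted p from 0.0555 to 0.231). The other 50 members that passed as positive had differences of 0.27 (Rpl4) to 1.43 (Rps28). Rps21 was an outlier that did not pass (-0.94, adjusted p = 0.398).

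Paralogues, and the retrocopy Rps4l, were read beside their core partner, in FPKM whose length is not fixed per gene. As a share of the FPKM of the pair, Rpl39l held 49.6% and 43.8% in the Released libraries, 31.3% and 32.5% in those of ETO and 29.5% and 23.7% in those of Control. In the Mof line it held 18.7% and 10.9% (WT) and 20.4% and 14.5% (KO). Its share was higher in both Released libraries than in any other library. Rps4l, an intronless relative of the X-linked Rps4x, held 49.3% and 50.2% (Released), 41.6% and 44.7% (ETO) and 42.1% and 42.6% (Control), against 32.2% and 28.1% (WT) and 35.0% and 30.6% (KO). Rpl7l1, which works in 60S assembly, held 11.0% and 11.5% in ETO, below every Control (15.4% and 13.6%) and Released (16.6% and 17.1%) library. The Rpl22l1 share stayed between 9.81% and 14.2% over all libraries. Rps27l, a p53-inducible paralogue of Rps27, held 98.7% to 99.4%, and the row of Rps27 held only 17.0% of the sum of that gene and its copies. The rows of Rpl39, Rpl7, Rps4x and Rpl22 held 70.9%, 67.2%, 49.6% and 97.6% of theirs. Copies in such a sum can include the partner gene itself, and the shares use only the core gene's own row.

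**Figure D5:**
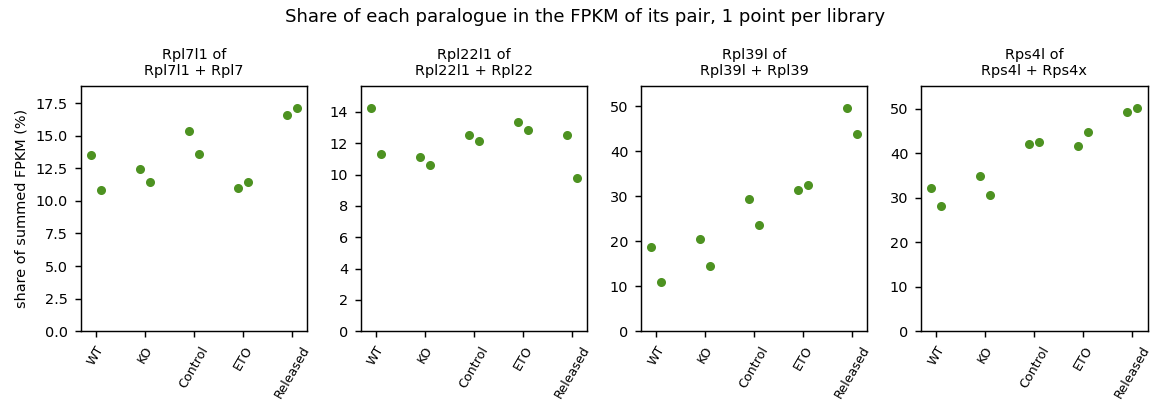
Share of the paralogue, or of the retrocopy Rps4l, in the FPKM summed with its core gene for 4 pairs that stand alone in their rows, 1 point per library. The Rpl39l share is 49.6% and 43.8% in Released and 29.5% and 23.7% in Control.

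The paralogue rows themselves changed as follows. Rpl7l1 fell in ETO from 2881 and 2759.7 to 1455 and 1459 (-0.95, adjusted p = 2.53e-09) and had 2684 and 2726 in Released. Rps4l fell from 4685 and 4755 to 3320.2 and 3585 (-0.45, adjusted p = 0.000909) and reached 5268 and 5333. Its partner Rps4x fell from 4235 and 4346 to 3087 and 2944 (-0.51, adjusted p = 2.04e-05). Both members of the Rps4 pair moved down together. In KO, Rpl39l rose from 129.6 and 140.4 to 229 and 221 (0.73, adjusted p = 0.0001). Rps27l had 1085 and 1321 in WT and 1554 and 1789 in KO (0.48, adjusted p = 0.000956) and 1219.6 and 1328 in Control and 1026 and 981 in ETO (-0.34, adjusted p = 0.00477, lost when Control replicate 2 was left out with adjusted p of 0.0654). Rps27 itself gave 0.47, adjusted p = 0.212 in KO and 0.03, adjusted p = 0.936 in ETO. Rpl22 gave -0.48, adjusted p = 6.47e-06 in ETO beside Rpl22l1 with -0.30, adjusted p = 0.0108, lost when Control replicate 2 or ETO replicate 2 was left out with adjusted p from 0.0612 to 0.0965.

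Rpl36al, an intronless relative of the X-linked Rpl36a in a row shared with Dnaaf2 and Pole2, had 1562 and 1549 in Control and 1014 and 965 in ETO (-0.65, adjusted p = 2.67e-06), and Rpl36a had 66.0 and 103 in Control and 52.4 and 39.9 in ETO (-0.84, adjusted p = 0.00985). That call did not hold when Control replicate 2 or ETO replicate 2 was left out (-0.64 to -0.52, adjusted p from 0.0987 to 0.153). Rpl37rt, in a row shared with Acads, had 3165 and 3000.4 in Control and 2246 and 2334 in ETO (-0.43, adjusted p = 0.000823). Rpl10l had 797 and 739 in Control and 657 and 733 in ETO (-0.14, adjusted p = 0.155) beside Rpl10 with 489.8 and 511 in Control and 345 and 325 in ETO (-0.58, adjusted p = 4.53e-05). Rps18, which makes contact with the large subunit, had 1665 and 1791 in Control and 1121 and 1172 in ETO (-0.59, adjusted p = 4.68e-06). Rpl13a, known to leave the ribosome in interferon signalling and here in a row shared with Flt3l, had 7148 and 6983 in Control and 5058 and 5478 in ETO (-0.42, adjusted p = 1.04e-05), and the deposited FPKM turned its direction (0.19, adjusted p = 0.628). Rpl3 had 947 and 919.5 in Control and 680.0 and 590.3 in ETO (-0.56, adjusted p = 3.93e-05). Values of shared rows hold reads of the other genes too.

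The stalk, which recruits the translational GTPases, has the genes Rplp0, Rplp1, Rplp2 and Rpl12 at its base. In KO none of the 4 passed in limma. Rplp0 had 12056 and 10546 in WT and 13089 and 11819 in KO (0.14, adjusted p = 0.11) and Rplp1 10569 and 8588 in WT and 11052 and 10066 in KO (0.15, adjusted p = 0.227). Rplp2 gave 0.20, adjusted p = 0.0977 and Rpl12 0.12, adjusted p = 0.191. In ETO, Rplp2 passed, with 2171 and 2256 in Control and 1892 and 1873 in ETO (-0.23, adjusted p = 0.034, lost when either Control library or either ETO library was left out with adjusted p from 0.083 to 0.166), but not with total signal as the factor (-0.06, adjusted p = 0.578). The other stalk genes did not, with -0.08, adjusted p = 0.331 for Rplp0, 0.12, adjusted p = 0.275 for Rplp1 and 0.04, adjusted p = 0.641 for Rpl12, whose libraries ran from 719 to 769 in both groups.

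Other role groups were read against the shares of all tested genes, of which 24.6% rose in KO, and 26.8% rose and 34.0% fell in ETO. Of 7 genes at the exit tunnel, 2 rose in KO and 3 fell in ETO, with a median of -0.65 there. Of 8 genes of the beak, platform and mRNA channel of the small subunit, 2 rose in KO and 5 fell in ETO, with a median of -0.41 there, and no member of either list passed in the other direction. Among 9 genes mutated in Diamond-Blackfan anaemia, 1 rose in KO, and 1 rose and 4 fell in ETO. Within the last list the ETO changes ran from -1.65 (Rpl5) to 0.81 (Rps19). Single genes of the small subunit differed in size. Rps12, a beak protein, had 570.2 and 525 in Control and 304 and 304 in ETO (-0.85, adjusted p = 1.53e-06), and Rps3, an entry channel protein with 1 copy, had 16901 and 17353 in Control and 14832 and 15368 in ETO (-0.18, adjusted p = 0.0044, lost when Control replicate 2 was left out with adjusted p of 0.0544), or -0.01, adjusted p = 0.834 with total signal as the factor.

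Genes that work with the ribosomal proteins, or are listed for the same kind of start, were read from lists. Of 24 tested genes listed for a terminal oligopyrimidine start, 13 rose and 2 fell in KO, 1 rose and 20 fell in ETO and 17 rose and 2 fell in Released against ETO, with medians of 0.20, -0.57 and 0.41. Not all of them are translation genes, and the list also holds Vim, Gas5 and Snhg1. Over all tested genes 24.6% rose and 13.3% fell in KO, 26.8% and 34.0% in ETO and 33.1% and 24.6% in Released against ETO, with medians of 0.08, -0.09 and 0.10. Pabpc1, the poly(A)-binding protein, had 28067 and 26740.4 in Control and 16045 and 15610.2 in ETO (-0.79, adjusted p = 1.01e-09). Eef1g, an elongation factor subunit, had 2455 and 2765 and 1387 and 1338 (-0.93, adjusted p = 2.35e-08), and Eif3l, an initiation factor subunit, gave -0.68, adjusted p = 2.52e-08. Vim, the intermediate filament gene, had 6489 and 6496 and 2576 and 2587 (-1.33, adjusted p = 3.04e-11). In KO, Snhg1 (1.01, adjusted p = 4.83e-07) and Gas5 (0.81, adjusted p = 1.89e-05), hosts of small nucleolar RNAs, Vim (0.76, adjusted p = 2.98e-07) and Ybx1 (0.31, adjusted p = 0.000321) rose. The rows of Snhg1 and Gas5 are shared with small nucleolar RNAs. In Released against ETO, Vim (0.88, adjusted p = 3.26e-09), Eef1d (0.86, adjusted p = 7.43e-09), Ybx1 (0.68, adjusted p = 2.62e-08) and Pabpc1 (0.70, adjusted p = 4.73e-09) rose.

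Of 34 chaperones, assembly factors and sensors, 16 rose and 2 fell in KO, 3 rose and 22 fell in ETO and 20 rose and 3 fell in Released against ETO, with medians of 0.16, -0.30 and 0.26, to be read against the same shares and medians of all genes. Mdm2, the ubiquitin ligase bound by the 5S particle, rose in ETO with the smallest p of the list (1.74, adjusted p = 3.52e-12), to 8106 and 7779.8 from 2461 and 2299. It fell on release to 3115 and 3172 (-1.34, adjusted p = 6.83e-11). It also rose in KO, from 3337 and 3504 to 5655 and 5860.4 (0.75, adjusted p = 4.63e-07). Bccip, known as a partner of Rpl23 (uL14), fell in ETO (-0.81, adjusted p = 7.7e-08), as did the 60S assembly factors Rsl24d1 (-0.76, adjusted p = 1.65e-07) and Nvl (-0.63, adjusted p = 8.41e-07). Larp1, which binds terminal oligopyrimidine mRNAs, rose in KO (0.35, adjusted p = 0.000171), as did Zfp598 (0.53, adjusted p = 7.84e-05), a sensor of collided ribosomes, and Rsl1d1 (0.45, adjusted p = 0.000201). Bysl, a 40S assembly factor, rose on release (0.83, adjusted p = 4.72e-07), as did Bccip (0.76, adjusted p = 1.95e-07) and Rsl24d1 (0.96, adjusted p = 1.43e-08). Fau gave 0.95, adjusted p = 0.00869 in KO and 0.27, adjusted p = 0.387 in ETO. No call printed for these lists was lost when any single library was left out.

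Annotated start sites were read for the pyrimidine run, as it is what marks the class. RefSeq (GRCm38.p6) start windows matched 56 of 76 core genes. Of these, 16 (28.6%) had a run of at least 5 C or T letters on the coding strand, counted from the annotated first base on, against 1426 of 27025 gene symbols (5.28%). An annotated start can lie some bases from the start in use, so no match says only that these letters are not at this base. The windows of 10 bases before and 20 from the start are shown for members that the ETO comparison turns on and for the longest run. Rpl39l is shown for its changes in the Released comparisons. The run from the annotated first base on is in capitals.
Rpl28 (chr7:4792955-4792984, plus strand): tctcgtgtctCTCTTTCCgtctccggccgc
Rps6 (chr4:86857348-86857377, minus strand): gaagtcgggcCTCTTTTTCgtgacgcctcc
Rpl38 (chr11:114668570-114668599, plus strand): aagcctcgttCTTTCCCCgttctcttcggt
Rpl27a (chr7:109519185-109519214, plus strand): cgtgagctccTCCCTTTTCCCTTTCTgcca
Rpl5 (chr5:107900518-107900547, plus strand): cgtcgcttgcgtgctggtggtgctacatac
Rpl11 (chr4:136053374-136053403, minus strand): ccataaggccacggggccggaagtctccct
Rpl39l (chr16:10170218-10170247, plus strand): aggcctttccggatttccggtggtcgccat

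Counted from the annotated base, Rpl28 and Rpl38 both had a run of 8 letters, which other pyrimidines precede, and they moved in opposite directions in ETO. Of core genes with such a start, 10 of 16 fell in ETO (median -0.39), and of those with a shorter run 25 of 40 fell (median -0.44). In KO, 5 of 16 and 12 of 40 rose. Rpl27a, with the longest run shown, had 1030.3 and 966 in Control and 529 and 438 in ETO (-1.05, adjusted p = 1.43e-06).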

How the data were processed

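Single-end RNA-seq of 10 libraries was analysed from the authors' gene tables. Per the submitters' processing notes, TopHat2 2.1.1, SAMtools 1.5, deepTools and mm10 were used, and the counting program, annotation, strand use and treatment of reads with several matches are not given in the sources used here. The deposited counts, per the file headers, are not whole numbers: 88.8% to 90.5% of values under 20 reads were whole multiples of 1 step per library, within 0.1 read, so this signal is a count divided by 1 factor per library. The deposited FPKM, per the file headers, carry the same factor, and FPKM of merged rows are not per length of the member. The value of 3 reads was 2.07 to 4.04 normalised counts by library, and it covers counting error only.

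The 50273 rows gave 49624 names after rows of the same name were summed, and 2 mitochondrial rows were left out. Genes with at least 10 in 2 libraries were fitted as log2(value + 1) in limma 3.58.1 (R 4.3.3) with 1 mean per group over all libraries, a trend and robust empirical Bayes. The two-sided p was adjusted by Benjamini-Hochberg over all tested genes, with calls at adjusted p under 0.05. Fold changes on this scale understate changes of low rows. A count test was planned only for whole counts and was not used. Copies were found with BLAST 2.17.0, and tables used Python 3.11.15, numpy 2.4.6 and pandas 2.3.3.

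Named members were, per comparison, the 6 rising and 6 falling called members with the largest change, members more than 3 scaled median absolute deviations from the median, the paralogue, stalk and 5S lists, members below the filter, and up to 4 genes of each other list by smallest adjusted p. Rpl34, Rps2, Rpl15, Rps4l and the other members named for the cell lines, library gaps, copies, start sites or roles were chosen after their values were seen. Values of a few genes and 1 sequence are not reported here. Members and lists were chosen with earlier results of these data known. Alternatives were other scalings, pseudocounts, filters, FPKM, a fit per experiment, the replicate block, leaving out each library, and, chosen after seeing the data, summed copies.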

Additional observations from a re-analysis of the deposited data

Results flagged for a closer look

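The KO change and the ETO change of the members differed by a test of the difference itself, with 56 members that passed as positive and 1 as negative. Over all tested genes 32.3% passed as positive and 22.2% as negative. At a mean of at least 1000 normalised counts, 69.7% of core genes and 62.0% of all genes passed as positive. Among named members the difference (KO change minus ETO change) was 2.56 for Rps6, 2.16 for Rpl23a, 1.98 for Rpl5, 1.91 for Rps29, 1.80 for Rps27a and 1.70 for Rpl10 on the log2 scale. For Rps19 it was -0.75. The deposited FPKM turned that of Rpl23a to -4.76, and with copies summed that of Rps29 was 0.34, of Rpl5 1.13 and of Rps6 1.62. Groups of 2 libraries were too small for a test of single outlying libraries.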

How the results depend on the processing

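Rising and falling counts with total signal as the factor were 15 and 4 in KO, 8 and 36 in ETO and 28 and 9 in Released against ETO, with 7 falling against Control and 4 falling in the difference. Leaving members and mitochondrial rows out of that total gave 16 and 4 in KO, 8 rising in ETO, and 7, 7 and 3 falling in the last 3 comparisons. Under these factors Rps3 turned to -0.0082 and -0.0032 in KO, Rpl4 to 0.13 and 0.11 in ETO and to -0.064 and -0.037 in the difference, Rps9 to -0.028 and -0.0015 and Rpl12 to -0.25 in the difference. Median-of-ratios factors gave 4 falling in KO, 7 in Released against ETO and 2 in the difference. FPKM gave 17 rising in KO, 2 in ETO and 25 in Released against ETO, and 0 falling against Control and in the difference, where 20 and 2 had an unadjusted p under 0.05 in limma. There Rps12 turned to -0.51 in KO, Rpl23a to -3.32, 1.44 and -4.76 in KO, ETO and the difference, and Rpl13a to 0.19, -0.30 and -0.12 in ETO, Released against ETO and the difference. All 3 share rows with other genes. Limma without trend or robust fitting gave 0 falling against Control and in the difference (12 and 0 unadjusted), where a pseudocount of 5, no filter and summed copies also gave 0 (1 unadjusted each). A pseudocount of 5 and summed copies gave 1 falling in KO. A fit per experiment gave 19 falling against Control and cannot give the difference. Members alone in their row numbered 17 rising in KO, 36 falling in ETO and 34 positive in the difference, from fewer tested members. Shares differed too. Of 51 core genes alone in their row, 11 rose in KO, 30 fell in ETO and 28 were positive in the difference. Of 22 core genes that share a row with a small nucleolar RNA the numbers were 10, 17 and 20.

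Leaving out 1 library gave 20 to 33 rising and 0 to 2 falling in KO, 2 to 4 and 42 to 60 in ETO, 30 to 47 and 3 to 4 in Released against ETO, 1 to 4 and 1 to 14 against Control and 49 to 58 and 0 to 2 in the difference. The Rpl37 difference ran from -1.18 (without WT replicate 2) to 0.49 (without WT replicate 1), and its sign turned. An arm left with 1 library is assumed to vary like the others. Libraries with the same number did not deviate together, with correlations of 0.0812 (WT, KO), -0.0146 (Control, ETO), 0.0376 (Control, Released) and -0.015 (ETO, Released), so the replicate block was not the main result. It gave 34 and 4 in KO, 5 and 59 in ETO, 48 and 5 in Released against ETO, 4 and 17 against Control and 60 and 1 in the difference. The cause of these shifts was not tested. Rows under about 3 reads are limited by depth.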
